A study of Mus musculus with 4 samples.

Results

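Astrocytes of the uninjured mouse spinal cord in which a Gfap transcript was captured were selected on their marker counts, and 566 of them were found among 5078 cells in all, 4159 of which came from uninjured cord. A cell entered the astrocyte gate with more than 500 and fewer than 50000 unique molecular identifiers (UMIs, 1 per captured transcript) of genes and a UMI in at least 2 of the 4 astrocyte genes Aqp4, Slc1a2, Gja1 and Aldh1l1. Cells with a UMI of Cldn5, Pdgfra or Col3a1 were left out, as were cells with more than 1 UMI summed over the microglial C1q genes or over the ependymal genes Tmem212, Cfap299 and Dnah12, and cells with more than 2 UMIs summed over the neuronal genes Nefl, Nefm and Snap25. The gate held 3450 uninjured cells, and the 566 members were those with at least 1 Gfap UMI. Because Gfap chose the cells, its level in them is a description and was not compared with that in cells without a Gfap UMI.

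The study sorted tdTomato-positive cells from spinal cord of adult Cx30-tdTomato mice, in which a tamoxifen-inducible Cre under the promoter of the astrocyte connexin Cx30 switches on the reporter. All mice had received an intravenous pool of adeno-associated viruses, each carrying 1 enhancer, a reporter and a transcribed barcode. The enhancers were injury-responsive candidates, with M-numbers here, and astrocyte enhancers known from earlier work that served as controls, with A-numbers. One group was uninjured, and the other was sampled 3 days after a contusion of the cord, from 5 mm segments at the same level. Per the study's methods both conditions held female and male mice pooled before capture, so each condition was 1 library and cells were not replicates. In the uninjured library, however, Xist was seen in 4 of the 3450 gate cells and a Y-linked transcript in 68.7%. Every comparison below is therefore a description without a test, and each 95% interval covers counting error only.

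GFAP is the main intermediate filament protein of astrocytes. In the healthy cord it is abundant in fibrous astrocytes of the white matter and along the pial surface, while protoplasmic astrocytes of the grey matter, which wrap synapses and clear glutamate, hold little of it. After injury astrocytes of many kinds raise GFAP together with vimentin, and for this reason it is the common marker of the reactive state.

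The gate kept most of the uninjured cells with a Gfap UMI. Of 666 such cells in the library, 659 passed the requirement for astrocyte genes and 652 passed the limits on vascular, precursor, fibroblast, microglial and ependymal genes, and a further 86 were lost at the neuronal limit. At that limit all cells, with or without Gfap, went from 3735 to 3450, so cells with a Gfap UMI were lost there at a higher rate. Depth was not matched in these counts. In the final gate, cells with a Gfap UMI had a median of 4077.5 gene UMIs and cells without one 3256. The part of depth in the loss was not tested. Slc1a2, the main glutamate transporter, had a UMI in 566 of 566 cells, and Aqp4, the water channel of astrocyte endfeet, in 555, but both had served to choose the cells. Sox9, an astroglial transcription factor that the gate did not use, had a UMI in 309 members.

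Most members stood just inside the rule. Gfap (ENSMUSG00000020932, a protein-coding gene on the minus strand of chromosome 11, 102887336 to 102900912, mm10) had 819 UMIs in the 566 cells, or 325 per 1000000 gene UMIs (CPM). It had 1 UMI in 440 cells and 2 UMIs in 85 cells, and 41 cells held 3 or more. The cells just outside, with 0 UMIs, numbered 2884. A single cell with 5444 gene UMIs held 38 Gfap UMIs, and the next held 10. That cell also had 28 UMIs of Nnat, 8 of Vim and 14 of the tdTomato transcript, but 0 of Aqp4 and 3 of Slc1a2.

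How many cells passed depended on depth. In the shallowest quartile of gate cells, with 514 to 2279 gene UMIs, 9.97% held a Gfap UMI, against 13.6% and 17.3% in the middle quartiles and 24.8% in the deepest. The level of Gfap over all cells of a quartile did not follow that order, at 80.1, 68.4, 61.8 and 58.3 CPM from shallowest to deepest. The 2884 gate cells with 0 Gfap UMIs were shallower, with a median of 3256 gene UMIs against 4077.5 in the members. The share in the whole gate, 16.4% (95% exact binomial interval 15.2 to 17.7), was 5.58% once each cell was thinned to 1000 gene UMIs.

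**Figure D1:**
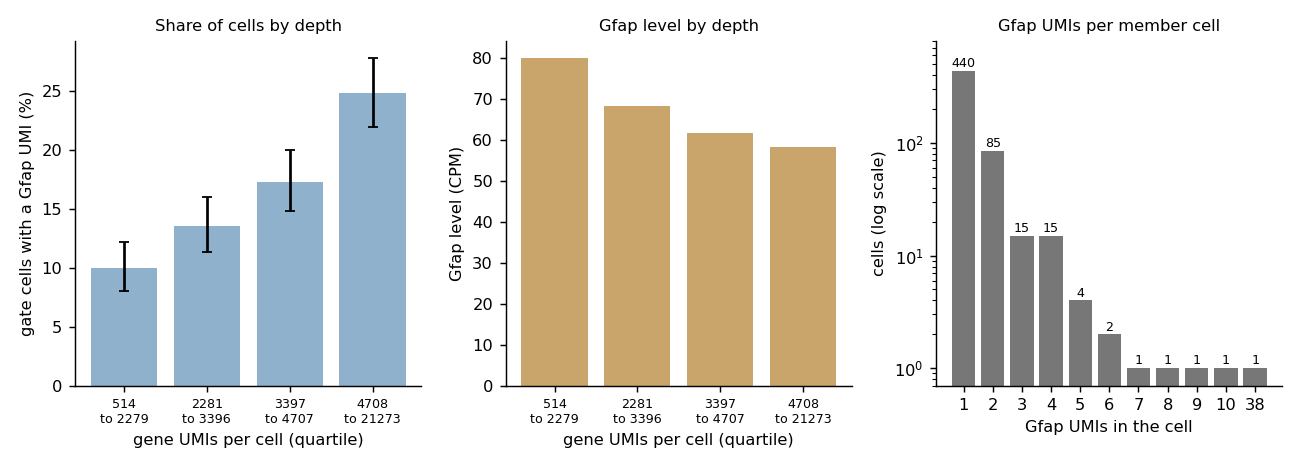
Left, share of gate cells with a Gfap UMI in quartiles of gene UMIs per cell, with 95% exact binomial intervals; middle, summed Gfap level in CPM of all cells in each quartile; right, number of members (log scale) by Gfap UMIs in the cell. The share went from 9.97% to 24.8% with depth while the level went from 80.1 to 58.3 CPM, and 440 of the 566 members held 1 Gfap UMI.

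Gfap was scarcer in cells of other types from the same library, which measure what free RNA adds. Gates for microglia, endothelial cells and fibroblasts held 124 cells together, and 1 of them, a fibroblast gate cell, had a Gfap UMI (0.806%, 0.0204 to 4.41). Their median depth was 2964 gene UMIs, against 3396.5 in the astrocyte gate, and their Gfap level was 2.37 CPM against 63.6 CPM. None of 19 ependymal gate cells, at a median of 4362 gene UMIs, had a Gfap UMI.

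Each member was paired with the gate cell of nearest depth among those with 0 Gfap UMIs. The median pair differed by 0.0304% in depth and 2 of 566 pairs differed by over 10%. Median depth was 4077.5 gene UMIs in members and 4078 in their partners, median genes per cell 1956.5 and 1944.5, and the median share of mitochondrial UMIs 5.85% and 5.47%. Xist was seen in 0 members and 1 partner, and a Y-linked transcript in 72.3% and 75.3% of cells.

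The members resembled their partners in nearly all genes. Partners were cells in which no Gfap UMI was captured, and at these depths some of them may express Gfap. Differences between cells that express Gfap and cells that do not may therefore be larger than the ratios given here. Over 9140 genes with at least 50 UMIs in both groups together, the median log2 ratio of levels (members over partners, 1 CPM added to each) was 0.01, and 5% to 95% of genes lay between -0.40 and 0.45. A ratio past 1.5-fold was taken as the mark of a difference. 2.05% of the genes, 187 in number, passed it upwards, and 1.48%, or 135, passed it downwards. Of the 1735 genes with at least 500 UMIs, 2 were past it upwards and 5 downwards. The 2 were Tmem176a (log2 ratio 0.61, 0.36 to 0.87), a membrane protein gene named here after its value was seen and at 127, 83.2, 90.8 and 99.9 CPM in members and the 3 control sets, and Hopx (0.59, 0.35 to 0.84), a homeodomain-only protein of astroglia and neural stem cells, which was within 1.5-fold against 2 further control sets (0.44 and 0.53). The 5 were Unc13c and 4 haemoglobin genes, which 1 cell decided.

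**Figure D2:**
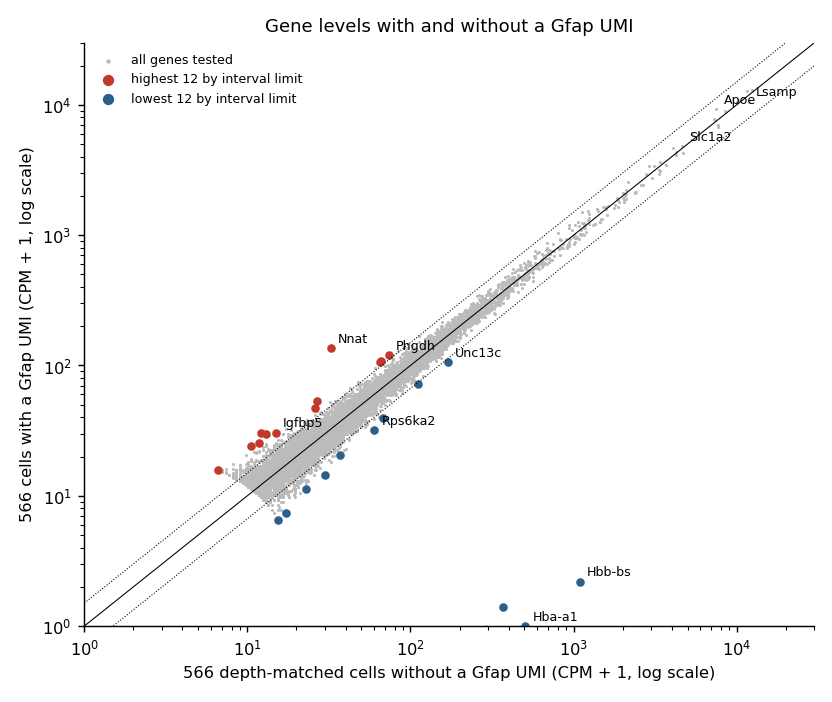
Level of each of 9140 genes in the 566 cells with a Gfap UMI (vertical, CPM + 1, log scale) against the 566 depth-matched cells without (horizontal, CPM + 1, log scale); the solid line is equality and dotted lines mark 1.5-fold. Red and blue points are the 12 genes highest and the 12 lowest by the interval limit nearest to 0. Nnat, at 135 against 31.5 CPM, stands apart above the line, and the 3 blue points at the lower right are haemoglobin genes from 1 control cell.

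Nnat, which encodes the small membrane proteolipid neuronatin, had the highest ratio by its lower interval limit among the genes with at least 50 UMIs. It lies on chromosome 2, 157560078 to 157562522, plus strand (mm10). Members held 340 Nnat UMIs in 108 cells and partners 79 UMIs in 51 cells, a log2 ratio of 2.07 (1.74 to 2.47). A group of rich cells accounted for much of this, since 39 members but 7 partners held 3 or more Nnat UMIs and 25 against 2 held 5 or more. The 5 richest members gave 77 of the 340 UMIs. Against 2 further sets of 566 depth-matched cells without Gfap, which shared no cell with the first, the log2 ratio was 1.61 and 1.73. It was 1.94 without the cell richest in Gfap.

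Nnat is abundant in ependymal cells, so their markers were set beside it. All 19 ependymal gate cells held Nnat, at 7759 CPM. The 7 ependymal markers summed to 32.2 CPM in members and 23.9 CPM in partners. Rarres2 gave most of these UMIs, with 65 in members and 47 in partners (log2 ratio 0.44, -0.10 to 1.04). Dynlrb2 had 5 and 0 UMIs, Ccdc153 1 and 0, and Foxj1, the regulator of motile cilia, 10 and 9. Tmem212 was at 0 in both, and Cfap299 and Dnah12 each had 0 in members and 2 in partners. Members held 0 UMIs of the ependymal gate genes Tmem212, Cfap299 and Dnah12 from the start. Restricting cells to 0 UMIs of the microglial and ependymal gate genes kept 565 of 566 members, and the log2 ratio of Nnat was 2.16. That step could remove no member for an ependymal gene, so an ependymal share in the ratio was not tested. Among gate-failing cells with over 2 UMIs of the neuronal genes, 10.2% held Nnat at 54.6 CPM, and with 0 neuronal UMIs asked of members and partners the ratio was 2.11.

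Among the other genes of the highest 12, Hes5, a Notch target, had 62 UMIs against 27 (log2 ratio 1.12, 0.52 to 1.90). Igfbp5, an insulin-like growth factor binding protein of fibrous astrocytes, had 74 against 35 (1.02, 0.48 to 1.70), and Gadd45g, a stress and growth arrest gene, 131 against 65 (0.98, 0.57 to 1.46). Phgdh, the first enzyme of serine synthesis, had 300 against 183 (0.70, 0.44 to 0.98). Cd9, a tetraspanin, had 271 against 164 (0.71, 0.44 to 1.01) and Hoxa7, a gene of segment identity, 265 against 161 (0.71, 0.43 to 1.01). The rest were 0610030E20Rik, Naprt, Gosr2, Smim27 and Hras, at log2 ratios of 0.85 to 1.32 and at most 116 UMIs in members.

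These genes were chosen for their ratio to the first set of partners, and against both further control sets the ratios of all 12 were smaller. Of the highest 12, Nnat alone was past 1.5-fold against both further sets. Hes5 was at 0.57 and 0.88, Phgdh at 0.48 and 0.56, Cd9 at 0.40 and 0.58, Igfbp5 at 0.31 and 0.61 and Hoxa7 at 0.15 and 0.40. All 12 stayed above 0 in both.

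The lowest 12 genes began with 3 haemoglobin genes, Hba-a1, Hbb-bs and Hba-a2. One partner cell held 5648 of the 5658 haemoglobin UMIs of all partners, the members held 4, and against the 2 further control sets Hba-a2 stood at -0.03 and 0.48. Among the others, Unc13c, a synaptic vesicle priming factor gene, had 264 UMIs in members and 423 in partners (log2 ratio -0.68, -0.91 to -0.46). Rps6ka2, a kinase downstream of ERK, had 78 against 148 (-0.91, -1.34 to -0.52), and Zdhhc14, a palmitoyltransferase gene, 97 against 168 (-0.78, -1.17 to -0.43). Tiam1, an exchange factor for the small GTPase Rac, had 16 against 41 (-1.24, -2.29 to -0.50), and Gm26749 had 14 against 36 (-1.23, -2.37 to -0.44). Tiam1 and Gm26749 were past 1.5-fold lower against both further control sets. The remaining 4, Cdk5rap1, Ctns, Sec23a and Ccdc162, lay between -1.05 and -0.62.

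Genes known from fibrous astrocytes leaned towards the members where their counts allowed a comparison. Of 12 such genes, 5 reached 50 UMIs, 2 of those were past 1.5-fold higher and 0 lower (against 2.05% and 1.48% of all genes), and the list median was 0.35 against 0.01 over all genes. S100a6, a calcium-binding protein, stood at 0.89 (0.29 to 1.63) and Igfbp5 at 1.02, while Id3 was at 0.35 (0.11 to 0.61), Fabp7, a fatty acid binding protein, at 0.31 (0.11 to 0.52) and Aqp4 at 0.17 (0.11 to 0.24). S100a6 was at 0.00 against the second control set, in which 1 cell held 14 of its 57 UMIs. Igfbp5 was one of the highest 12 and stood at 0.31 and 0.61 against the further sets, and Aqp4 had served in the gate. The list was chosen with earlier results of these data known, so its lean is a description and not independent support.

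The other members of the fibrous list were below 50 UMIs and are named with their counts only. Vim, the filament partner of GFAP, had 31 UMIs in 13 members and 5 UMIs in 5 partners. Its control level depended on single cells, since the second control set had 28 Vim UMIs in 2 cells, 27 of them in 1 cell, and the third set had 6 UMIs in 6 cells. Id1 had 25 UMIs in members and 6, 25 and 9 in the 3 control sets. Tnc, an extracellular matrix glycoprotein of immature and reactive glia, had 9 UMIs in 7 members and 0 in partners. Cd44, a hyaluronan receptor of fibrous astrocytes, had 11 against 17, Myoc 1 against 1, and Thbs4 and Crym 0 in both.

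Genes known from protoplasmic astrocytes were at like levels with and without a Gfap UMI. Slc1a2, Gja1, Aqp4 and Aldh1l1 had chosen both groups alike, so their ratios describe the gate as much as the cells. Of 16 on the list, 15 were tested, 0 were past 1.5-fold in either direction and the median was 0.01. Of all genes 2.05% were past it upwards and 1.48% downwards. A count of 0 in this list, or in the short lists below, is therefore near the share of all genes. Slc1a2 stood at 4828 CPM in members and 4609 CPM in partners (log2 ratio 0.07, 0.03 to 0.10). Slc7a10, a transporter of serine and glycine, was at 1588 and 1591 CPM (0.00, -0.07 to 0.06), Slc6a11, a GABA transporter, at 1190 and 1177 CPM (0.02, -0.06 to 0.09) and Kcnj10, the potassium channel Kir4.1, at 472 and 479 CPM (-0.02, -0.14 to 0.10). Within the list Agt, angiotensinogen, was the highest at 0.38 (0.28 to 0.48), and the glutamate receptors Grm3 (-0.33, -0.60 to -0.07) and Gria2 (-0.28, -0.45 to -0.11) were the lowest.

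Housekeeping functions of astrocytes gave the same picture. The 7 genes of transmitter uptake had a median of 0.02 and 0 past 1.5-fold, and the 9 genes of potassium, water and bicarbonate handling 0.07 and 0. Slc1a3, the second glutamate transporter, was at 0.26 (0.11 to 0.41) and Glul, glutamine synthetase, at -0.02 (-0.13 to 0.08). The 10 genes of glycolysis and glycogen had a median of 0.09, with Pgk1 highest at 0.34 (0.17 to 0.52), and 10 of cholesterol and fatty acid synthesis 0.04. The 8 tested lineage factors, among them Sox9, Sox2 and the Nfi genes, had a median of -0.01 and 0 past the fold.

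**Figure D3:**
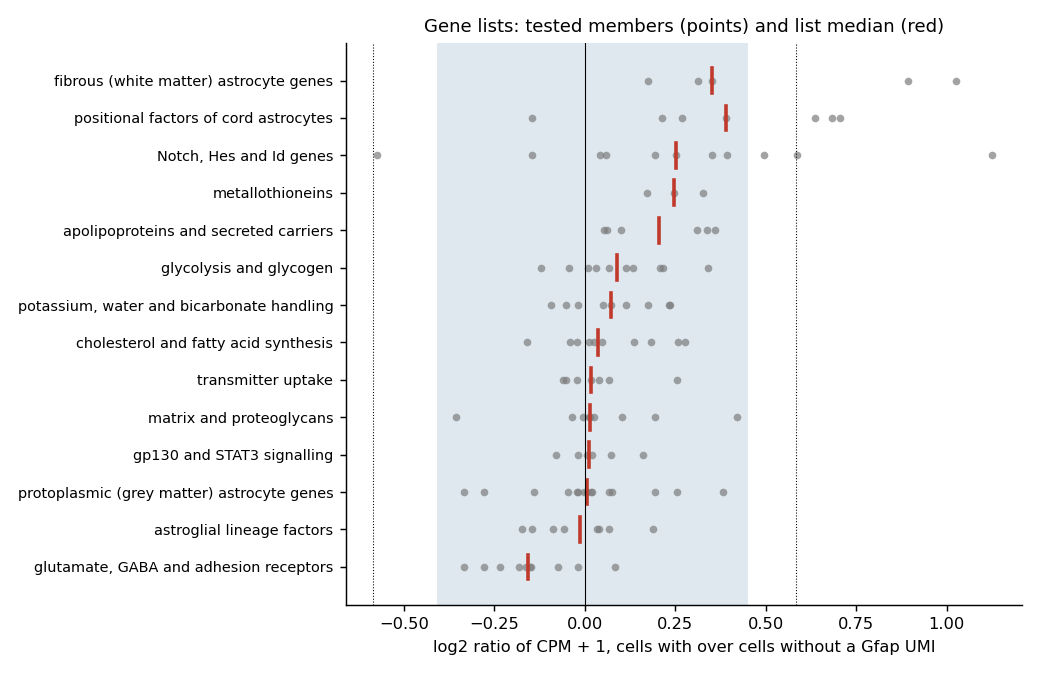
Log2 ratio of levels (members over depth-matched cells without Gfap, CPM + 1) for the tested genes of 14 lists; each point is a gene, red bars are list medians, the shaded band holds 5% to 95% of all 9140 genes and dotted lines mark 1.5-fold. Medians ran from 0.39 for positional factors to -0.16 for receptors, and the protoplasmic list sat at 0.01.

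Each of the 6 tested genes of lipid carriers and other secreted proteins had a ratio above 0, with a median of 0.21, and 0 were past 1.5-fold. The lowest of them was Abca1, a lipid exporter, at 0.05 with an interval that spanned 0 (-0.18 to 0.29). Apoe, the main lipoprotein of astrocytes, stood at 9289 CPM in members and 7496 CPM in partners (0.31, 0.28 to 0.34) and Clu, the chaperone clusterin, at 1030 and 803 CPM (0.36, 0.28 to 0.44). All 3 metallothioneins were above 0 and 0 were past 1.5-fold, led by Mt3 at 0.33 (0.26 to 0.40). Sparc, a matricellular glycoprotein, was at 1513 and 1130 CPM (0.42, 0.35 to 0.49), the highest of 9 matrix genes whose median was 0.01. Against the further control sets Apoe stood at 0.25 and 0.36, Clu at 0.28 and 0.34 and Sparc at 0.32 and 0.36.

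Of 10 tested genes of receptors and adhesion molecules, 9 had a ratio below 0 and 1 above, 0 were past 1.5-fold and the median was -0.16. Gabrb1, a GABA receptor subunit, was at -0.02 with an interval that spanned 0 (-0.08 to 0.04). Lsamp, a neural adhesion molecule, stood at 10604 CPM in members and 11865 CPM in partners (-0.16, -0.19 to -0.14). Gria4, a subunit of AMPA receptors, was at -0.23 (-0.32 to -0.15). Lsamp lay between -0.16 and -0.15 against the further control sets.

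Of 11 tested genes in a list of Notch, Hes and Id genes that also held Hopx, 2 were past 1.5-fold higher, Hes5 and Hopx, and 0 lower, against 2.05% and 1.48% of all genes, and the median was 0.25. Hopx was within 1.5-fold against both further control sets and Hes5 against 1 of them. Id4 was at 0.39 (0.15 to 0.65) and Hey2, a Notch target with 49 UMIs against 74, at -0.57 (-1.15 to -0.06). Of 7 tested positional factors, Nkx6-1, Hoxa7 and Hoxb8 were past 1.5-fold higher and 0 were lower (2.05% and 1.48% of all genes), with a median of 0.39. Nkx6-1, which marks ventral progenitors and their astrocytes, had 45 UMIs against 28 (0.63, -0.03 to 1.42) and was at 0.06 and 0.62 against the further control sets, and Hoxb8 was at 0.48 and 0.56.

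The 6 tested genes of gp130 and STAT3 signalling had a median of 0.01, with Stat3 at 102 against 103 UMIs. In the 40 cells with 3 or more Gfap UMIs described below, Stat3 was at 101 CPM (59 to 162) against 41.0 CPM in partners, and was seen in 15 of 40 against 85 of 566 cells. The 5 tested immediate early and stress genes had a median of 0.00, with Fos at 54 against 36 UMIs (0.55, -0.05 to 1.23). Of 5 class I antigen presentation genes 4 were tested, 0 were higher and 1, Tapbp, was past 1.5-fold lower (40 against 64 UMIs, -0.65, -1.29 to -0.09; 1.48% of all genes were). Tapbp was at -0.43 and -0.61 against the further control sets and turned to 0.68 in cells thinned to 1000 gene UMIs and to 1.14 in cells with at least 3 Gfap UMIs. B2m was at 0.31 (0.03 to 0.59). Hsd11b1, an enzyme that activates glucocorticoids, and the secreted proteins Chil1 and Igfbp2 lay between 0.08 and 0.13.

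Of 16 reactive astrocyte genes, 2 reached 50 UMIs, S100a6 and Stat3. C4b, a complement component, was below that limit and was past 1.5-fold against all 3 control sets, with 24 UMIs in 20 members against 5, 4 and 5 UMIs in the 3 sets (log2 ratio to the first 1.82, 0.84 to 4.01). Serpina3n, an acute phase protease inhibitor, had 19 UMIs against 21. Lcn2, lipocalin 2, had 0 in both groups, Lgals3 0 and 1, Timp1 2 and 0, Hspb1 6 and 2, and Osmr 1 and 1. By the floor of 3 counts, 0 of 566 members allows a share of up to 0.53% of cells with an Lcn2 UMI, which does not limit the share of cells that express the gene.

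Markers of other cell types were low in both groups, and their part in these ratios was not tested. Oligodendrocyte genes summed to 355 CPM in members and 288 CPM in partners. Microglial markers summed to 100 and 81.2 CPM, neuronal to 152 and 138 CPM, fibroblast to 123 and 121 CPM and endothelial to 3.18 and 2.39 CPM. Among the defining genes that the gate did not use, Tmem119 of microglia and Flt1 of endothelium were at 0 in both groups. C1qb, Cldn5, Col3a1 and Tmem212 were at 0 as well, but the gate had set or limited their counts, as it had those of the other C1q, ependymal and neuronal genes it used.

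The differences were widest in the few members with most Gfap. These classes were formed on Gfap alone, and the cell with 38 Gfap UMIs was left out of the top class, which then held 40 cells with a median of 3691 gene UMIs. Nnat stood at 31.5 CPM in partners, 88.2 CPM in cells with 1 Gfap UMI, 83.9 CPM with 2 and 638 CPM (523 to 771) with 3 or more. The share of cells with Nnat was 9.01%, 16.1%, 16.5% and 55.0%. Cells with 1 and with 2 Gfap UMIs did not differ beyond their intervals, and the top class lay far above both.

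Other genes took the same step at the top class. Phgdh was at 72.9, 103, 109 and 328 CPM (247 to 427 in the top class) and Hopx at 90.4, 123, 104 and 340 CPM (257 to 440). Id4, an inhibitor of basic helix-loop-helix factors, was at 95.6, 104, 134 and 298 CPM. Among abundant genes, Sparc was at 1130, 1475, 1280 and 2558 CPM, Clu at 803, 939, 982 and 2212 CPM, Agt at 577, 700, 762 and 1306 CPM and Apoe at 7496, 8921, 9026 and 13953 CPM. Vim had 16 UMIs in 7 of the 40 top cells and C4b 7 UMIs in 7 of them, against 5 UMIs each in 566 partners. These genes were chosen for display by class after their values were seen.

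Genes of the protoplasmic list went both ways in the top class. Agt was at 577 CPM in partners and 1306 CPM in the top class, while Gria2 was lower. Slc1a2 was at 4609, 4822, 4787 and 5140 CPM (4803 to 5495 in the top class) and Slc7a10 at 1591, 1616, 1604 and 1264 CPM (1100 to 1446). Gria2, an AMPA receptor subunit, had a UMI in 306 of 566 partners and in 8 of the 40 top cells, at 256 and 119 CPM (73 to 184). Lsamp was at 11865 and 8378 CPM (7946 to 8828). Ependymal markers summed to 23.9 CPM in partners and 29.8 CPM in the top class, and neuronal markers to 138 and 161 CPM. Reactive genes summed to 78.4 and 394 CPM (304 to 501 in the top class). The top class value rested on 66 UMIs, those of Vim, C4b and Stat3 among them, and no member held a UMI of Lcn2, Lgals3 or Steap4.

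**Figure D4:**
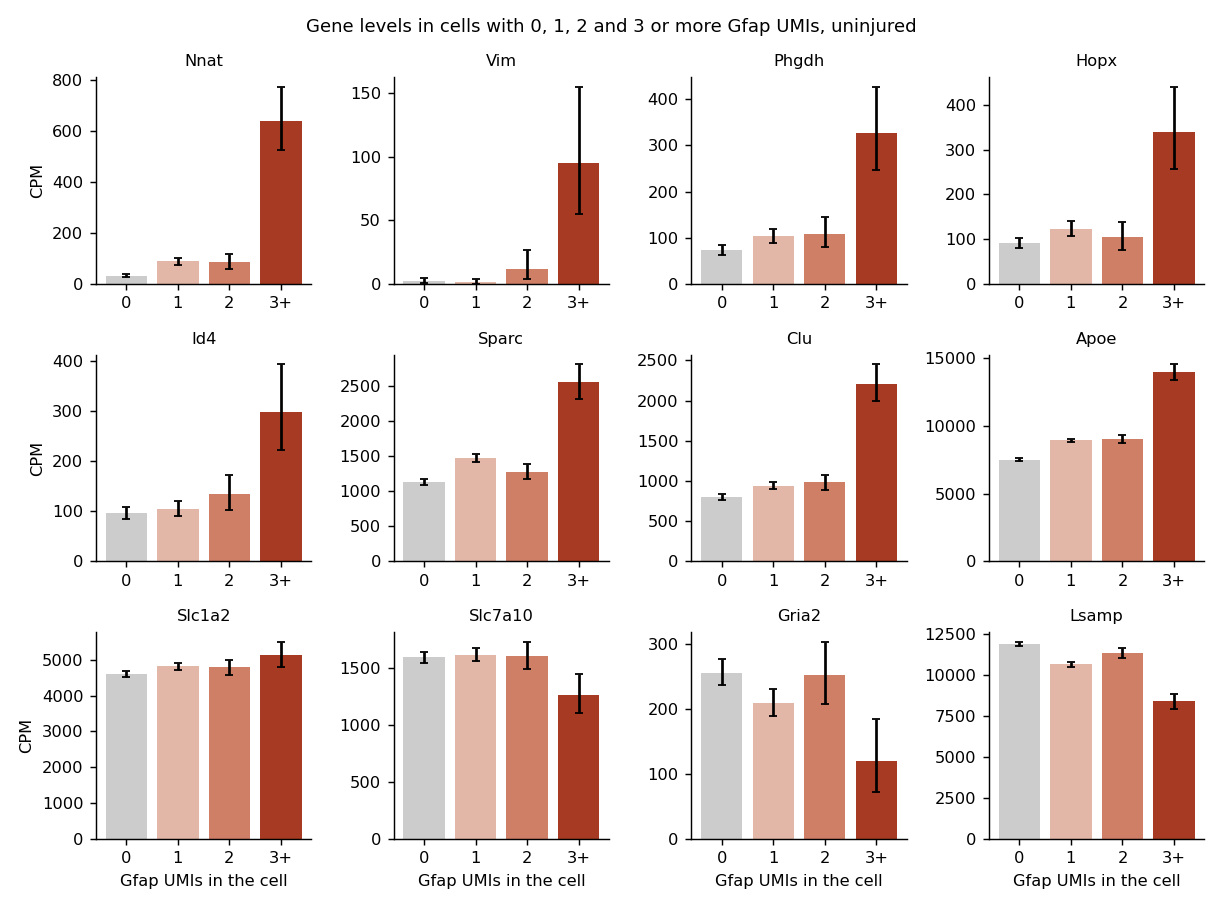
Summed level in CPM (linear axis from 0) of 12 genes in depth-matched gate cells with 0 Gfap UMIs (566 cells) and in members with 1 (440 cells), 2 (85 cells) and 3 or more Gfap UMIs (40 cells, without the cell that held 38); bars are 95% exact Poisson intervals. Nnat goes from 31.5 to 638 CPM and Slc1a2 from 4609 to 5140 CPM.

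The sorting reporter was somewhat higher in the members. tdTomato transcripts stood at 478 CPM in members and 380 CPM in partners, a ratio of 1.26 (1.15 to 1.37), and were seen in 78.6% and 70.7% of cells. The ratio to the further control sets was 1.18 in both. By Gfap class the reporter was at 380, 451, 427 and 847 CPM. The connexin whose promoter drives the Cre, Gjb6, was at 643 and 640 CPM (log2 ratio 0.01, -0.09 to 0.11) and Gja1, the other astrocyte connexin, at 0.13 (0.06 to 0.19).

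Of the 23 enhancers of the viral pool, the barcode of 1 was seen in these cells. Each enhancer is read through a barcode of 44 bases in its reporter transcript. Per the study, pooled packaging left a high share of barcodes paired with a wrong enhancer, though correct pairs were more likely to be detected. A barcode UMI is therefore not certain to come from the enhancer it names. The barcodes shown are the one that members carried, A5, and 4 that were seen in injured cells but in no member. Capitals mark the 12 variable bases at each end, and the 20 bases between them are common to all.
A5: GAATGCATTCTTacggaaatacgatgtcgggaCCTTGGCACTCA
A1: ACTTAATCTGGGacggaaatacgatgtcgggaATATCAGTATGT
M5: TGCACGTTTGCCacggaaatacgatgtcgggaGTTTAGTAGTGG
M8: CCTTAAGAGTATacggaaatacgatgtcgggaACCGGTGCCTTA
M24: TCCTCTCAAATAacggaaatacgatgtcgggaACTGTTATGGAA

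A5 was detected at like rates with and without a Gfap UMI. It had 148 UMIs in 126 members and 144 UMIs in 119 partners, which is 22.3% of cells (18.9 to 25.9) against 21.0% (17.7 to 24.6). Its level was 58.8 and 57.3 CPM, a ratio of 1.02 (0.809 to 1.30). No member held more than 3 A5 UMIs. The other 22 enhancers had 0 UMIs in members, for each of which the floor of 3 counts allows 0.53% of cells with a UMI (exact binomial upper limit 0.65%). These limits are on detection of the barcode, not on cells that carried or used the enhancer.

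In the injured library the same gate with a Gfap UMI held other barcodes. A1 was in 39.6% of 293 cells (34.0 to 45.4), M5 in 35.8% (30.3 to 41.6), M8 in 11.3% and M24 in 6.83%. A further enhancer, M11, had 3 UMIs in 3 cells. A5 was in 17.7% (13.5 to 22.6), at 39.2 CPM.

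The injured library was set side by side with the members for the injury genes. Its gate held 314 injured cells, of which 293 (93.3%) had a Gfap UMI. Over all gate cells Gfap stood at 2785 CPM in the injured library and 63.6 CPM in the uninjured one. In the gate cells with a Gfap UMI it was at 2878 and 325 CPM, but Gfap had chosen both of these groups. Condition and library cannot be told apart. Xist was seen in 60 of the 293 injured cells and in 0 of the 566 uninjured ones, so the libraries also differed in the share of cells of female type, and 7 cell barcodes occurred in both libraries.

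For Vim the level was 2070 CPM after injury against 12.3 CPM without, and 69.6% and 2.30% of the cells held a UMI. S100a6 was at 1652 and 23.0 CPM, Hspb1, a small heat shock protein, at 915 and 2.38 CPM, Serpina3n at 388 and 7.54 CPM and Cd44 at 170 and 4.37 CPM. Lcn2 was at 244 CPM in injured cells and had 0 UMIs in the uninjured ones, so it was at least 205-fold higher against a floor of 3 counts over the group, and Lgals3 at least 178-fold higher. Timp1, with 2 UMIs in uninjured cells, had a ratio of 361 (99.5 to 2990) and was seen in 41.6% of injured cells.

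Nnat stood at 487 CPM after injury against 135 CPM without (ratio 3.61, 3.18 to 4.10), C4b at 131 and 9.53 CPM and Fabp7 at 666 and 176 CPM. Stat3 was at 123 and 40.5 CPM. The astrocyte genes differed less, with Aqp4 at 2368 and 1580 CPM, Gja1 at 1312 and 1544 CPM, Slc1a3 at 374 and 317 CPM, Sox9 at 327 and 238 CPM and Slc1a2 at 3709 and 4828 CPM.

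**Figure D5:**
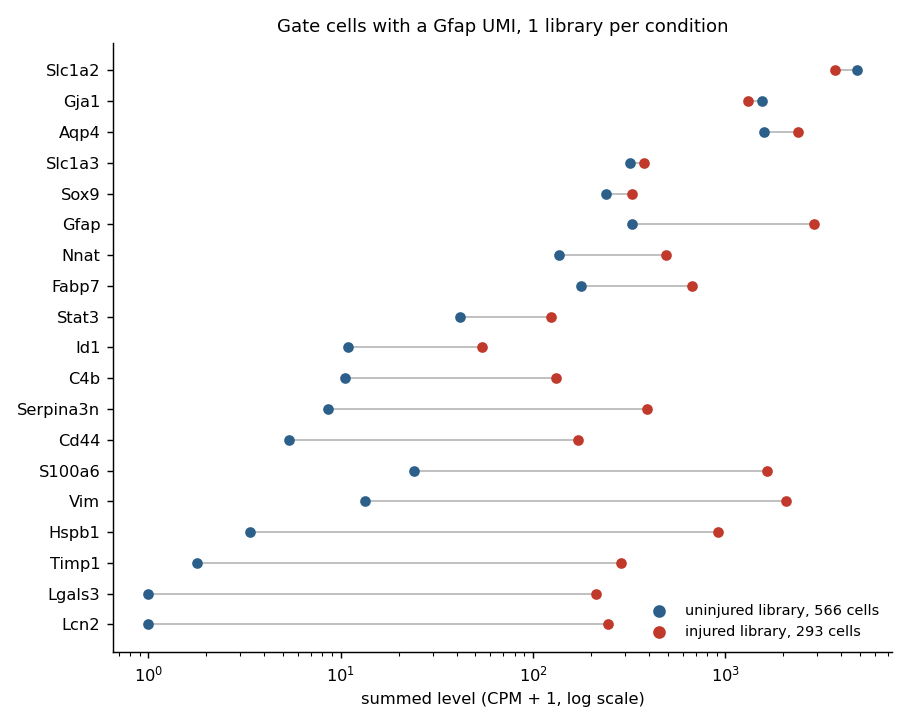
Summed level (CPM + 1, log scale) of 19 genes in gate cells with a Gfap UMI, 566 in the uninjured library (blue) and 293 in the injured library (red), 1 library each. Gfap chose both groups, so its points are a description only. Astrocyte genes such as Slc1a2 lie close together at the top, while Vim (12.3 and 2070 CPM) and Lcn2 (0 and 244 CPM) lie far apart.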

How the data were processed

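Single-cell 3' libraries were made from sorted tdTomato-positive spinal cord cells, and the deposited values are whole UMI counts per gene and enhancer barcode for each cell, which the authors made with Cell Ranger against mm10 (version 8.0.1 in the submitters' processing notes, 7.1.0 in the file header). No values were normalised in the deposited counts. Both libraries were used as deposited. The barcode enrichment libraries share these matrices, and 0 columns of other samples were used.

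Gene UMIs were summed per cell, with enhancer barcodes left out. Levels are UMIs summed over cells per 1000000 gene UMIs (CPM), and for comparisons Gfap was left out of the total. Members were paired 1:1 with cells of nearest depth and 0 Gfap UMIs, without replacement. Genes needed 50 UMIs over both groups. Sums carry exact Poisson intervals, shares exact Clopper-Pearson intervals and ratios exact conditional binomial intervals at 95%, for counting error only. UMIs and cells are not replicates, and with 1 library per condition no test was run. Doublets were not removed, and leaving out the deepest 5% of cells was an alternative. Floors rest on 3 counts. Gates of other cell types asked for at least 3 UMIs of their genes and at most 1 astrocyte gene.

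Named genes were those of the gate, those of gene lists with enough UMIs, reactive genes near 0, the 12 highest and 12 lowest by the interval limit nearest to 0 whose direction held without the richest cell of each group, and enhancers seen in at least 10 cells. Members and lists were chosen with earlier results of these data known. Control sets 2 and 3, and leaving out the cells richest in haemoglobin and in Gfap, were added after seeing the data. Gene positions come from GENCODE, matched by identifier for 99.6% of 32285 genes. Enhancer barcodes were read from the study's construct list, where M-numbers were matched to elements of equal number. On simulated counts of 4265 genes for this comparison, 200 genes made 4-fold different were recovered at 100%, and intervals covered 95.8% of true ratios. Python 3.11.15, numpy 2.4.6, scipy 1.17.1 and matplotlib 3.10.9 were used. Values of some single list genes are not reported here.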

Additional observations from a re-analysis of the deposited data

How the results depend on the processing

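Of 162 named genes, 70 kept their direction under every alternative. The count of genes past 1.5-fold rests on low counts: it was 30 higher and 18 lower with 10 CPM added, 460 and 336 with a limit of 20 UMIs, 1546 and 1232 with a limit of 1 UMI, and 907 and 1283 with cells thinned to 1000 gene UMIs, where 190 cells kept a Gfap UMI. With all cells without Gfap in place of matched ones 206 genes were lower. The share of gate cells with Gfap was 5.58% after thinning, 3.65% when 2 Gfap UMIs were asked and 1.19% when 3 were asked. The A5 ratio was 1.32 after thinning and 1.43 with at least 2 Gfap UMIs. The tdTomato ratio was 1.499 with at least 2 and 2.04 with at least 3 Gfap UMIs, where the median of the fibrous list was 1.22 and that of the protoplasmic list -0.11. Tapbp turned to 0.68 after thinning and to 0.41 and 1.14 with at least 2 and 3 Gfap UMIs, and with at least 3 Hras turned to -0.25 and Sec23a to 0.26. Hbb-bs was at 0.64 and 0.62 against the second and the third control sets, and Hba-a2 at 0.48 against the second and 0.000129 without the deepest 5% of cells, since those controls lack the cell rich in haemoglobin. Id1 was at -0.021 against the second set. The third set was less close in depth, with 87 pairs over 10% apart. Causes of the other shifts were not tested. No paired analysis was possible because the design gives 1 library for either condition, with no result that came from a test.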
